A study of Drosophila melanogaster with 12 samples.

Results

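The RNAs of the *Drosophila* mitochondrial genome were followed in RNA immunoprecipitation sequencing (RIP-Seq) of adult heads. They are the products of all 37 genes, of 17612 in the count table, that the annotation places on the mitochondrial genome. They comprise 13 protein-coding genes, 2 rRNA genes and 22 tRNA genes. The 12 libraries fall into 4 groups of 3, namely RNA bound in immunoprecipitations (IPs) with the FLAG antibody (replicates 4 to 6), the inputs of those IPs, RNA bound in IPs with a polyclonal Caper antibody (replicates 1 to 3), and the inputs of those. All flies carried *Hsp70Gal4* and *UASCaperFlag*, were kept at 37°C for 2 h and then at 30°C overnight, and so overexpressed FLAG-tagged Caper, an RNA-binding protein and splicing factor, from a heat shock promoter. No mock IP was analysed here and all inputs carry the transgene, so each IP was set against its own inputs. An IP is compared with its input to find out which RNAs were recovered with the tagged protein or with Caper of any source, and a second antibody gives a separate measurement of the same.

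Mitochondrial genes are transcribed inside the organelle from both strands of a small circular genome, as long RNAs that are cut at the tRNAs between the coding genes. The mRNAs encode core subunits of the respiratory complexes, the rRNAs build the mitochondrial ribosome, and the tRNAs serve translation inside mitochondria. Heads hold photoreceptors, neurons and muscle, tissues that are rich in mitochondria, and all other subunits of the respiratory complexes are made from nuclear genes.

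The counts of read pairs on genes ran from 20431211 to 23694613 in the FLAG IPs, 9615414 to 12579559 in their inputs, 23907193 to 34264177 in the Caper IPs and 10746027 to 12401744 in their inputs. Markers of neurons, photoreceptors, glia, fat body and muscle were present in all groups, and 4 markers of ovary and testis summed to between 2.03 and 9.63 CPM, the counts scaled to equal library sizes. The 4 photoreceptor markers summed to 25555 to 29825 CPM in the FLAG IPs, against 36987 to 39154 CPM in their inputs, and to 32499 to 53435 CPM in the Caper IPs, against 36341 to 46110 CPM in their inputs. The 4 neuron markers summed to 5335 to 5499 CPM in the FLAG IPs, against 3965 to 4287 CPM in their inputs, and to 4384 to 4534 CPM in the Caper IPs, against 4048 to 4348 CPM in their inputs. These markers did not move as one. With FLAG, *brp* averaged 1902 CPM in the IPs, against 951 CPM in the inputs, while *nSyb* and *Syt1* rose less. *elav* averaged 292 CPM in the FLAG IPs, against 305 CPM in their inputs. In the Caper IPs *nSyb* and *brp* averaged above their inputs, and *elav* and *Syt1* below. The 5 muscle markers summed to 7412 to 7616 CPM in the FLAG IPs, against 9182 to 10166 CPM in their inputs, and to 9231 to 11104 CPM in the Caper IPs, against 8801 to 9918 CPM in their inputs. The share of alignments left uncounted because they mapped to several places was 34.3 to 40.9% in the FLAG IPs, against 72.5 to 74.3% in their inputs, and 21.7 to 24.7% in the Caper IPs, against 71.7 to 75.2% in their inputs. The part of these differences in the results below was not tested. The titles name each input as that of its IP, so these values compare RNA recovered with RNA put in, not numbers of cells.

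The 37 genes lie between base 1 and base 14916 of the mitochondrial genome in the dmel_r6.36 annotation. The plus strand carries 9 of the protein-coding genes and 14 tRNA genes, while the minus strand carries 4 protein-coding genes, both rRNA genes and 8 tRNA genes. The labels do not say whether replicates came from separate flies or lysates, so the p-values below measure only the spread between these libraries. The coding and rRNA genes form 4 blocks by strand. The first holds *mt:ND2*, *mt:CoI*, *mt:CoII*, *mt:ATPase8*, *mt:ATPase6*, *mt:CoIII* and *mt:ND3* on the plus strand. The second holds *mt:ND5*, *mt:ND4* and *mt:ND4L* on the minus strand, the third *mt:ND6* and *mt:Cyt-b* on the plus strand, and the fourth *mt:ND1*, *mt:lrRNA* and *mt:srRNA* on the minus strand.

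The inputs give the level of each RNA before immunoprecipitation, here as CPM per kb of exon, scaled among the 6 inputs (mean ± SD, n = 6). *mt:lrRNA*, the large rRNA, stood far above all others at 56595 ± 7402 CPM per kb. The subunits of cytochrome c oxidase (complex IV) followed, with *mt:CoIII* at 3406 ± 182, *mt:CoII* at 2119.6 ± 172 and *mt:CoI* at 1926 ± 186 CPM per kb, and the ranges of *mt:CoII* and *mt:CoI* overlapped. *mt:ND1* of complex I, at 769 ± 22.2 CPM per kb, and *mt:srRNA*, the small rRNA, at 689 ± 123 CPM per kb, did not separate from each other either. *mt:Cyt-b*, the cytochrome b of complex III, reached 211 ± 35.8 CPM per kb and *mt:ATPase6* of the ATP synthase 73.2 ± 8.95 CPM per kb. The other complex I mRNAs were lower. *mt:ND5* came to 54.3 ± 8.06 CPM per kb, *mt:ND4* to 24.6 ± 4.34, *mt:ND3* to 19.1 ± 4.43, *mt:ND4L* to 17.1 ± 4.14, *mt:ND2* to 10.2 ± 3.03 and *mt:ND6* to 2.7 ± 0.554. The inputs of *mt:ATPase6* overlapped those of *mt:ND5*, and from *mt:ND4* down to *mt:ND2* each gene overlapped the next in this order. *mt:ND6* lay below *mt:ND2* in all inputs. The small rRNA was thus counted at a level near that of *mt:ND1* and far under the large rRNA, although a mitochondrial ribosome holds both in equal number. Which rRNAs the probes of the library kit remove is not given in the sources used here.

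Mitochondrial RNA took a smaller share of the reads in every IP than in its input. It made up 2.61, 1.35 and 2.59% of all counts in the FLAG IPs, against 8.47, 7.37 and 7.42% in their inputs. In the Caper IPs the share was 0.673, 0.546 and 0.828%, against 8.05, 9.15 and 9.66% in their inputs. The IPs and inputs of either antibody did not overlap. The mean log2 ratio of IP to input over the 6 pairs was -2.81 ± 1.07 (SD), with 6 of 6 pairs below 0 and a two-sided exact permutation p of 0.03125, the smallest that 6 pairs can give, or 0.0625 after Benjamini-Hochberg adjustment over 4 shares. With the mitochondrial rRNAs left out of both numerator and denominator the mean log2 ratio was -1.65, again with a two-sided exact permutation p of 0.03125. By antibody, the mean log2 ratio was -1.89 ± 0.49 (SD, n = 3) with FLAG and -3.73 ± 0.29 (SD, n = 3) with Caper. All 3 FLAG pairs lay above all 3 Caper pairs, and 3 pairs against 3 cannot give an exact p below 0.1. The 95% Wilson intervals of these shares reach at most 0.0172 percentage points to either side, and cover counting error only.

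**Figure D1:**
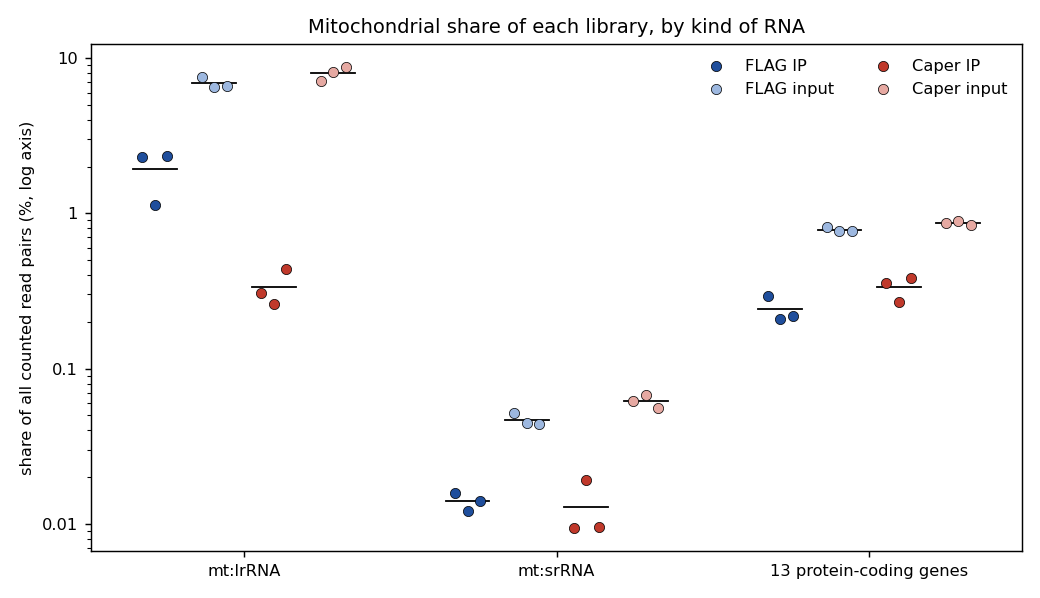
Share of all counted read pairs (%, log axis) on *mt:lrRNA*, *mt:srRNA* and the 13 protein-coding genes, 1 point per library and a line at the mean of each group of 3. Every IP lies below every input of its antibody, and the large rRNA is the kind at which the FLAG and Caper IPs stand farthest apart.

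The FLAG IPs and the Caper IPs stood apart in their rRNA. The rRNA genes took 88.8, 84.4 and 91.6% of mitochondrial counts in the FLAG IPs, against 90.3, 89.6 and 89.7% in their inputs, so that this share overlapped. They took 47.1, 51.0 and 54.0% in the Caper IPs, against 89.3, 90.3 and 91.3% in their inputs, with no overlap. Over all 6 pairs the mean log2 ratio of this share was -0.43, with 5 of 6 pairs below 0 and a two-sided exact permutation p of 0.09375 (0.125 adjusted over the 4 shares). The 13 protein-coding genes alone made up 0.293, 0.210 and 0.218% of all counts in the FLAG IPs, against 0.819, 0.769 and 0.766% in their inputs. They made up 0.356, 0.268 and 0.380% in the Caper IPs, against 0.863, 0.891 and 0.839% in their inputs. For mRNA the Caper IPs were therefore not below the FLAG IPs, unlike for *mt:lrRNA*, which made up most rRNA counts. *mt:srRNA* overlapped, with 0.0158, 0.0120 and 0.0139% of all counts in the FLAG IPs and 0.00940, 0.0193 and 0.00956% in the Caper IPs.

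The change of each RNA was tested with edgeR's quasi-likelihood test of 3 IPs against 3 inputs over all genes that passed its filter on low counts, with Benjamini-Hochberg adjustment over those genes and 0.05 as the threshold. Of the 37 genes, 14 passed the filter with each antibody, namely 12 of the 13 mRNAs and both rRNAs. *mt:ATPase8* and the 22 tRNAs had too few counts. All 14 tested were lower with FLAG and all 14 were lower with Caper, where 20.8% of 10476 genes tested were called lower with FLAG and 7.53% of 10778 with Caper. For each of the 14 RNAs and each antibody, all 3 IPs lay below all 3 inputs, which 27.3% of all genes tested did with FLAG and 17.5% with Caper. The median log2 fold change of the 14 was -2.90 with FLAG and -2.26 with Caper, where the medians of all genes tested were 0.00 and 0.03. Ranked from the lowest fold change, the 14 RNAs lay in the lowest 4.24% of genes tested with FLAG and the lowest 3.51% with Caper, and 9 of them with FLAG and 7 with Caper lay in the lowest 1%. Some mRNAs with few counts in the IPs could pass the filter through their inputs and then had to be lower. Where at least 10 counts were required in every library, 10 RNAs remained with FLAG and 13 with Caper, and each of them was lower.

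**Figure D2:**
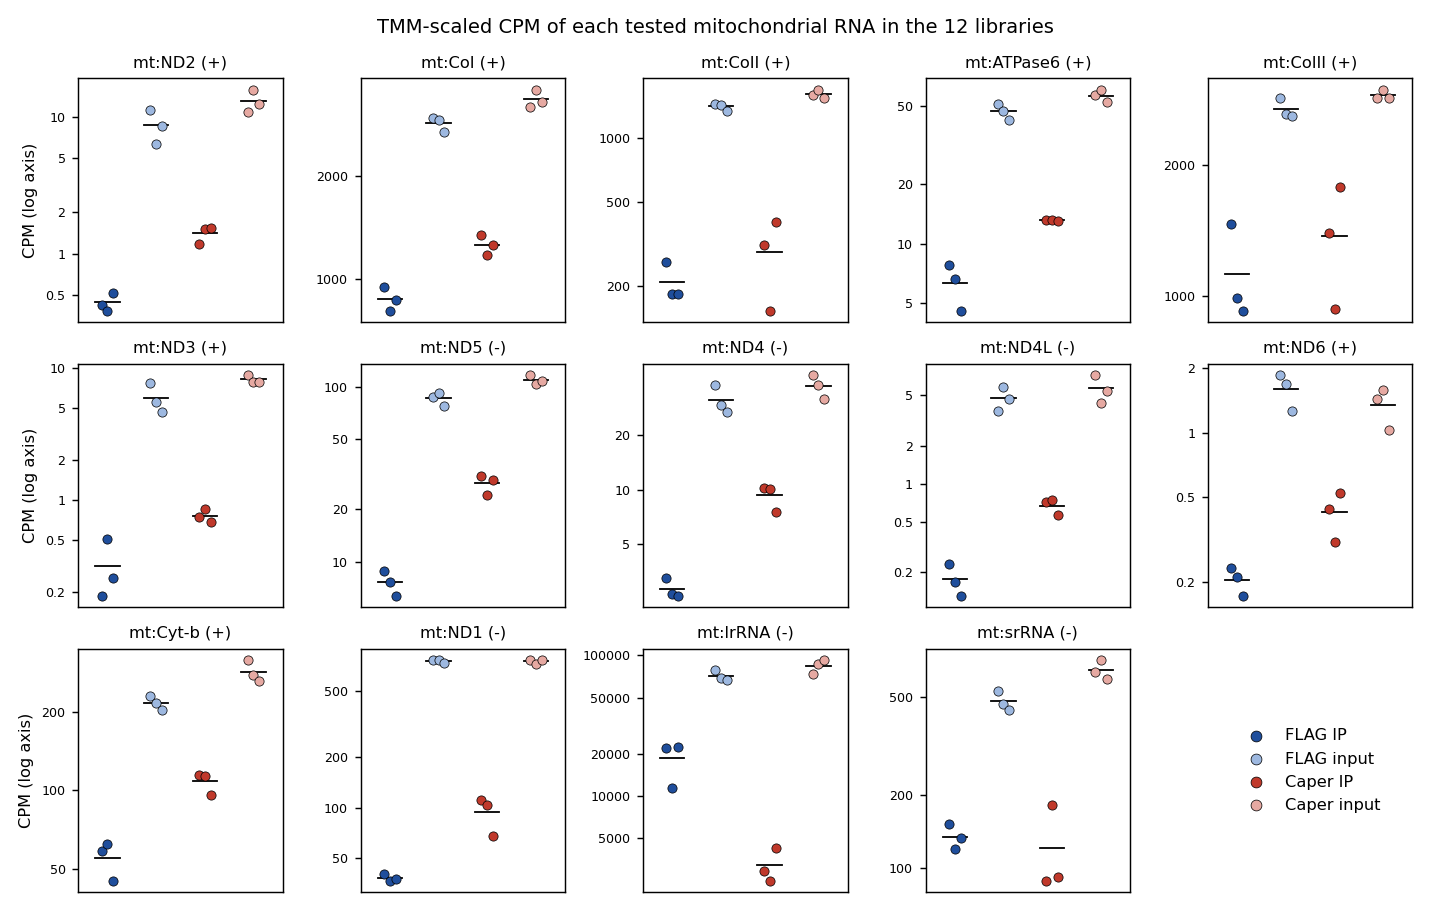
TMM-scaled CPM (log axis, a range of its own in each panel) of the 14 mitochondrial RNAs tested, 1 point per library with a line at the group mean. The strand of each gene stands in brackets, and in every panel the 3 IPs of an antibody lie below its 3 inputs.

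Values per library are given as CPM after TMM scaling within the 6 libraries of an antibody. *mt:CoIII* fell least of all 14 RNAs with either antibody, and *mt:CoI* and *mt:Cyt-b* came next among the mRNAs. *mt:CoIII* (FBgn0013676, bases 4736 to 5524), cytochrome c oxidase subunit III, had 1468, 989 and 925 CPM in the FLAG IPs, against 2867, 2633 and 2605 CPM in their inputs, a log2 fold change of -1.26 ± 0.19 (SE, edgeR adjusted p = 0.00214). It had 1402, 936 and 1789 CPM in the Caper IPs, against 2856, 2991 and 2865 CPM in their inputs, a log2 fold change of -1.08 ± 0.23 (SE, edgeR adjusted p = 0.0304). The IPs did not overlap the inputs, and the Caper call was lost without any of the Caper inputs (edgeR adjusted p = 0.0850 to 0.128). *mt:CoI* (FBgn0013674, bases 1474 to 3009), the catalytic subunit I, had 949, 809.7 and 873 CPM in the FLAG IPs, against 2948, 2899.8 and 2684 CPM in their inputs. In the Caper experiment it had 1349, 1176 and 1256 CPM in the Caper IPs, against 3167, 3553 and 3264 CPM in their inputs. Its log2 fold change was -1.70 ± 0.12 (SE, edgeR adjusted p = 0.000151) with FLAG and -1.40 ± 0.11 (SE, edgeR adjusted p = 0.00156) with Caper, the most even of the 3 subunits between replicates. *mt:CoII* (FBgn0013675, bases 3083 to 3767), the subunit that takes electrons from cytochrome c, had 258, 184 and 182 CPM in the FLAG IPs, against 1449, 1435 and 1351 CPM in their inputs. It had 312, 152 and 399.6 CPM in the Caper IPs, against 1602, 1698 and 1552 CPM in their inputs, and Caper IP 2 stood below the other Caper IPs. Its log2 fold changes were -2.76 ± 0.16 (SE, edgeR adjusted p = 9.58e-05) with FLAG and -2.49 ± 0.34 (SE, edgeR adjusted p = 0.00995) with Caper, where the call was lost without Caper input 2 (edgeR adjusted p = 0.0692). *mt:CoI* and *mt:CoIII* together took 86.5, 85.7 and 86.6% of the mitochondrial mRNA counts in the FLAG IPs, against 68.7, 68.0 and 68.4% in their inputs. In the Caper IPs they took 82.2, 83.4 and 83.2%, against 67.3, 69.0 and 68.7% in their inputs, so these transcripts made up more of what mRNA remained in every IP.

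Outside complexes I and IV, *mt:Cyt-b* (FBgn0013678, bases 10499 to 11635), the mitochondrially encoded subunit of complex III, had 58.9, 62.2 and 44.9 CPM in the FLAG IPs, against 229.8, 215 and 202 CPM in their inputs. In the Caper experiment it had 115, 114 and 96.2 CPM in the Caper IPs, against 315, 277 and 261 CPM in their inputs. Its log2 fold change was -1.96 ± 0.14 (SE, edgeR adjusted p = 0.000151) with FLAG and -1.39 ± 0.11 (SE, edgeR adjusted p = 0.00176) with Caper, close to that of *mt:CoI* with that antibody. *mt:ATPase6* (FBgn0013672, bases 4062 to 4736), a membrane subunit of the ATP synthase, had 7.80, 6.67 and 4.57 CPM in the FLAG IPs, against 50.8, 47.1 and 42.6 CPM in their inputs. It had 13.3, 13.2 and 13.1 CPM in the Caper IPs, against 56.5, 60.5 and 52.1 CPM in their inputs, where the Caper IPs lay close together. Its log2 fold changes were -2.88 ± 0.20 (SE, edgeR adjusted p = 0.000151) with FLAG and -2.09 ± 0.09 (SE, edgeR adjusted p = 0.000187) with Caper. *mt:ATPase8* (FBgn0013673, bases 3907 to 4068), the small ATP synthase subunit beside it, overlaps *mt:ATPase6* by 7 bases and had 2 counts in all 12 libraries. A read pair that touched 2 genes on its strand was not counted, and the part of that rule in the low count was not tested.

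The complex I mRNAs, which encode membrane subunits of NADH dehydrogenase, had the lower median of the mRNAs with both antibodies. The 7 of them had a median log2 fold change of -4.18 with FLAG and -3.00 with Caper, where the 5 other mRNAs tested had medians of -1.96 and -1.40. Of the 7, *mt:ND2*, *mt:ND3*, *mt:ND4L* and *mt:ND6* passed the filter with FLAG only through their inputs, and so had to be low there. *mt:ND6* did so with Caper too. The 3 that had at least 10 counts in every FLAG library, *mt:ND1*, *mt:ND5* and *mt:ND4*, had log2 fold changes of -4.32, -3.48 and -3.46, below each of the 5 other mRNAs. *mt:ND1* (FBgn0013679, bases 11721 to 12659) had 40.1, 36.1 and 37.4 CPM in the FLAG IPs, against 764, 768 and 730.0 CPM in their inputs. In the Caper experiment it had 110.5, 103 and 67.3 CPM in the Caper IPs, against 764, 728 and 765 CPM in their inputs. With log2 fold changes of -4.32 ± 0.10 (SE, edgeR adjusted p = 2.89e-06) with FLAG and -3.00 ± 0.20 (SE, edgeR adjusted p = 0.000774) with Caper, it was the complex I mRNA with the most counts and the one with the smallest standard error in the FLAG IP. *mt:ND5* (FBgn0013684, bases 6409 to 8125), a proton-pumping subunit, had 8.83, 7.73 and 6.38 CPM in the FLAG IPs, against 87.2, 91.9 and 77.3 CPM in their inputs. It had 30.8, 24.1 and 29.1 CPM in the Caper IPs, against 117, 103 and 107 CPM in their inputs. The log2 fold changes were -3.48 ± 0.15 (SE, edgeR adjusted p = 2.29e-05) with FLAG and -1.96 ± 0.12 (SE, edgeR adjusted p = 0.000516) with Caper.

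*mt:ND4* (FBgn0262952, bases 8207 to 9545), which lies next to *mt:ND5* on the same strand and also encodes a proton-pumping subunit, averaged 2.84 ± 0.375 CPM in the FLAG IPs, against 31.3 ± 5.62 CPM in their inputs (SD, n = 3). It averaged 9.30 ± 1.5 CPM in the Caper IPs, against 37.3 ± 5.64 CPM in their inputs. Its log2 fold changes of -3.46 ± 0.18 (SE, edgeR adjusted p = 4.81e-05) with FLAG and -2.0 ± 0.17 (SE, edgeR adjusted p = 0.00226) with Caper stood within their standard errors of those of *mt:ND5*. *mt:ND4L* (FBgn0013683, bases 9545 to 9835), which shares 1 base with *mt:ND4*, averaged 0.177 ± 0.0526 CPM in the FLAG IPs, against 4.72 ± 1.04 CPM in their inputs, and 0.672 ± 0.0944 CPM in the Caper IPs, against 5.67 ± 1.47 CPM in their inputs. Its log2 fold change in the FLAG IP, -4.69 ± 0.35 (SE, edgeR adjusted p = 0.000189), was the lowest of the 14 RNAs there, on 3 to 5 counts per IP, and that in the Caper IP was -3.06 ± 0.29 (SE, edgeR adjusted p = 0.00345).

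*mt:ND2* and *mt:ND3* flank the complex IV genes at the ends of the first plus-strand block. *mt:ND2* (FBgn0013680, bases 240 to 1263) averaged 0.439 ± 0.0706 CPM in the FLAG IPs, against 8.71 ± 2.50 CPM in their inputs, and 1.41 ± 0.197 CPM in the Caper IPs, against 13 ± 2.58 CPM in their inputs. This amounted to log2 fold changes of -4.28 ± 0.30 (SE, edgeR adjusted p = 0.000155) with FLAG and -3.21 ± 0.22 (SE, edgeR adjusted p = 0.000824) with Caper. *mt:ND3* (FBgn0013681, bases 5608 to 5961) averaged 0.317 ± 0.168 CPM in the FLAG IPs, against 5.92 ± 1.57 CPM in their inputs, and 0.760 ± 0.0862 CPM in the Caper IPs, against 8.16 ± 0.612 CPM in their inputs. For this gene the log2 fold change was -4.18 ± 0.40 (SE, edgeR adjusted p = 0.000393) with FLAG and -3.42 ± 0.20 (SE, edgeR adjusted p = 0.000443) with Caper, the lowest of the mRNAs with Caper. *mt:ND6* (FBgn0013685, bases 9971 to 10495) was the rarest mRNA tested, with 4 to 5 counts per FLAG IP, against 12 to 20 in their inputs, and 8 to 16 counts per Caper IP, against 12 to 16 in their inputs. With either antibody it passed the filter on low counts only through its inputs, and so had to be lower. The log2 fold change of *mt:ND6* was -2.92 ± 0.38 (SE, edgeR adjusted p = 0.00118) with FLAG and -1.65 ± 0.39 (SE, edgeR adjusted p = 0.0399) with Caper, and the Caper call did not hold without a filter (edgeR adjusted p = 0.0841) or without any Caper input or Caper IP 2 or 3 (edgeR adjusted p = 0.0915 to 0.198).

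The rRNAs fell too, and the fall of *mt:lrRNA* differed between the antibodies. *mt:lrRNA* (FBgn0013686, bases 12735 to 14058) had 21926, 11273 and 22409 CPM in the FLAG IPs, against 78518, 69455 and 66800.1 CPM in their inputs, and FLAG IP 5 stood below the other FLAG IPs. It had 2895, 2454 and 4212 CPM in the Caper IPs, against 73842, 87102 and 93216 CPM in their inputs, a larger fall than that of any mRNA in the Caper IP. The log2 fold changes of the large rRNA were -1.95 ± 0.30 (SE, edgeR adjusted p = 0.00232) with FLAG and -4.73 ± 0.28 (SE, edgeR adjusted p = 0.000471) with Caper, which is 3.86-fold and 26.6-fold lower than in the inputs. *mt:srRNA* (FBgn0013688, bases 14131 to 14916) had 151, 120.2 and 133 CPM in the FLAG IPs, against 532, 469 and 445 CPM in their inputs. It had 88.4, 182 and 92.0 CPM in the Caper IPs, against 637, 713 and 594 CPM in their inputs, with Caper IP 2 above the other Caper IPs. For the small rRNA they were -1.84 ± 0.12 (SE, edgeR adjusted p = 0.000138) with FLAG and -2.42 ± 0.30 (SE, edgeR adjusted p = 0.00817) with Caper, where the call was lost without Caper input 2 (edgeR adjusted p = 0.0594). The ratio of large to small rRNA counts was 145, 93.8 and 169 in the FLAG IPs, against 148, 148 and 150.2 in their inputs. It was 32.7, 13.5 and 45.8 in the Caper IPs, against 116, 122 and 157 in their inputs, so that the FLAG IPs spanned the values of their inputs and the Caper IPs all lay below theirs.

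**Figure D3:**
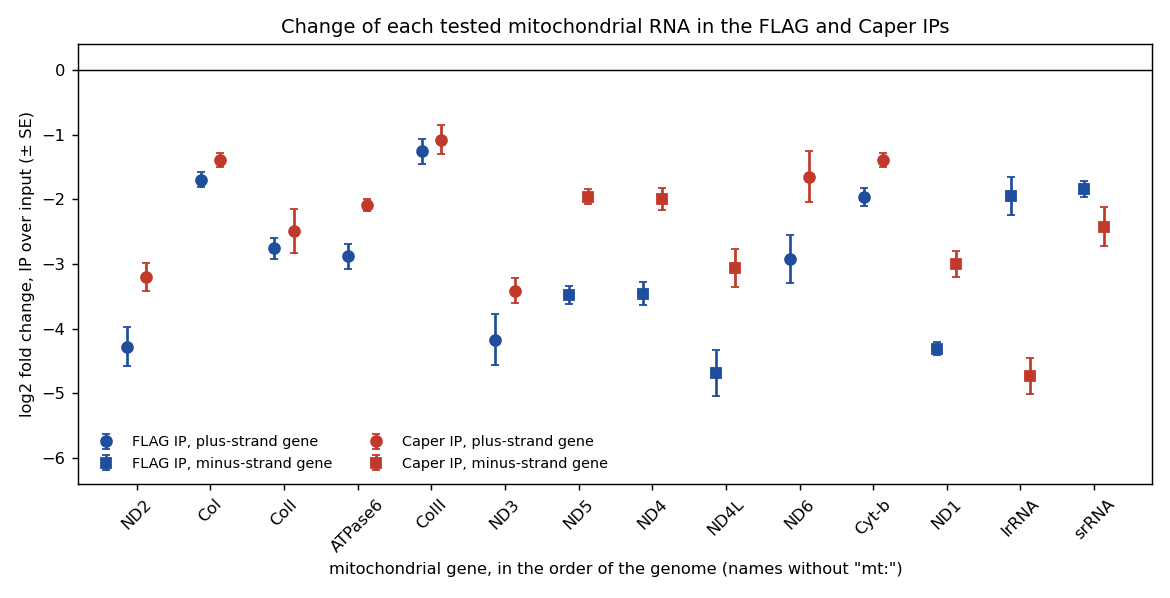
Log2 fold change of IP over input (± SE from edgeR) of each of the 14 mitochondrial RNAs tested, in the order of the genome, with plus-strand genes as circles and minus-strand genes as squares. All values lie below 0, from -4.69 to -1.26 with FLAG and from -4.73 to -1.08 with Caper, and only the rRNAs have the FLAG point above the Caper point.

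The antibodies, whose comparisons share no library, ordered the 12 mRNAs in much the same way. Spearman's rho between their log2 fold changes was 0.811 and Pearson's r 0.905 across these 12 genes of a single genome, which are not independent replicates. With the level per kb in the inputs, Spearman's rho was 0.643 for the FLAG IP and 0.469 for the Caper IP, and with exon length it was 0.287 and 0.455. The abundant *mt:CoI* and *mt:CoIII* were among the 3 mRNAs that fell least with either antibody, beside *mt:Cyt-b*, and the rare *mt:ND2*, *mt:ND3* and *mt:ND4L* were among the 4 that fell most. *mt:ND1*, which was abundant and fell by 4.32 on the log2 scale in the FLAG IP, and *mt:ND6*, the rarest, which fell by 1.65 in the Caper IP, departed from that order. With FLAG, *mt:ND2*, *mt:ND3*, *mt:ND4L* and *mt:ND6* passed the filter only through their inputs. Their low place there, and the correlations that include it, are therefore partly set by the filter. With Caper, *mt:ND6* also passed only through its inputs, so its place there is partly set by the filter. *mt:ND2*, *mt:ND3* and *mt:ND4L* had at least 10 counts in every Caper library.

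Whether the antibodies differed was tested as the difference of their log2 fold changes, FLAG minus Caper, in an edgeR fit of all 12 libraries. Of the 14 RNAs, 4 differed, 3 lower and 1 higher in the FLAG IP, where 0.963% of 11012 genes differed, 0.145% lower and 0.817% higher. The 3 that fell further in the FLAG IP were complex I mRNAs of the minus strand, *mt:ND5* at -1.52 ± 0.18 (SE, edgeR adjusted p = 0.0134), *mt:ND4* at -1.46 ± 0.25 (SE, edgeR adjusted p = 0.0286) and *mt:ND1* at -1.31 ± 0.22 (SE, edgeR adjusted p = 0.0260). *mt:ND4L*, the remaining mRNA of that strand, had a difference of -1.63 ± 0.43 (SE, edgeR adjusted p = 0.104). *mt:lrRNA* was the RNA that fell further in the Caper IP, with a difference of 2.78 ± 0.38 (SE, edgeR adjusted p = 0.0155). *mt:srRNA*, its neighbour, had a difference of 0.59 ± 0.33 (SE, edgeR adjusted p = 0.413).

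None of the 8 plus-strand mRNAs tested had a difference past the threshold in that fit. They ran from -1.28 for *mt:ND6* and -1.08 for *mt:ND2*, over -0.79 for *mt:ATPase6*, -0.76 for *mt:ND3* and -0.57 for *mt:Cyt-b*, to -0.30, -0.27 and -0.18 for *mt:CoI*, *mt:CoII* and *mt:CoIII*. *mt:ATPase6* passed with DESeq2 (adjusted p = 0.0147) and without FLAG IP 4 (edgeR adjusted p = 0.0496). *mt:CoII* and *mt:CoIII* took the opposite sign without Caper IP 3. With the pairing of each IP with its input as a replicate block, 8 of the 14 RNAs differed, where 12.1% of all genes did, and *mt:ND2* (edgeR adjusted p = 0.0445), *mt:ATPase6* (0.00885), *mt:Cyt-b* (0.0131) and *mt:srRNA* (0.0473) were added. Leaving out 1 library at a time gave between 0 and 5 RNAs, 0 of them without FLAG input 4, 1 without Caper input 3, FLAG input 6 or FLAG IP 6, and 2 without Caper input 1 or 2, Caper IP 2 or FLAG IP 5. Calls over all genes changed too, from 90 higher and 16 lower with all libraries. They were 1 higher and 0 lower of 11698 without FLAG input 4, and 5 and 2 of 11722 without Caper input 3. Without Caper IP 1 they were 295 and 223 of 10780. The sign of the difference was the same in all of these fits for *mt:ND5*, *mt:ND4*, *mt:ND1* and *mt:lrRNA*.

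**Figure D4:**
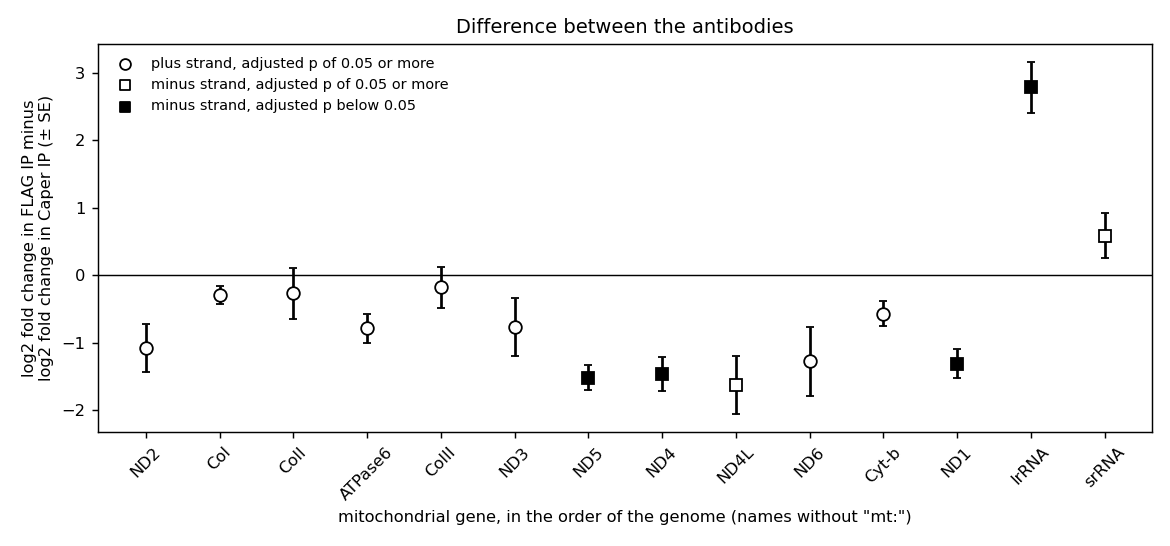
Difference of log2 fold changes between the antibodies (FLAG IP minus Caper IP, ± SE from edgeR) for the 14 mitochondrial RNAs tested, in the order of the genome. Filled squares mark *mt:ND5*, *mt:ND4*, *mt:ND1* and *mt:lrRNA*, whose adjusted p-values are below 0.05, and the minus-strand mRNAs lie between -1.63 and -1.31.

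The strands were also compared by their shares of the counts. The 4 minus-strand mRNAs took 1.87, 2.22 and 2.24% of the mitochondrial mRNA counts in the FLAG IPs, against 10.6, 11 and 10.8% in their inputs. They took 4.55, 5.46 and 2.86% in the Caper IPs, against 10.4, 9.21 and 10.2% in their inputs. The share was lower in 6 of 6 IPs than in their inputs, with a mean log2 ratio of -1.81 ± 0.70 (SD, n = 6) and a two-sided exact permutation p of 0.03125, the smallest possible (0.0625 adjusted over the 4 shares). By antibody the mean log2 ratio was -2.36 ± 0.12 (SD, n = 3) with FLAG and -1.26 ± 0.54 (SD, n = 3) with Caper, and all FLAG pairs lay below all Caper pairs. Most minus-strand mRNA counts were of *mt:ND1*, 858 of 1122 in FLAG IP 4 and 7777 of 9085 in its input. It had 4022 of 5544 in Caper IP 1 and 8008 of 9759 in its input. This share therefore mainly sets *mt:ND1* against *mt:CoI* and *mt:CoIII*, which held most mitochondrial mRNA counts, and is not a measure of the whole strand.

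All 4 minus-strand mRNAs encode complex I subunits, so the strands were compared within that complex too. Within complex I, the 3 plus-strand mRNAs had median log2 fold changes of -4.18 with FLAG and -3.21 with Caper, and the 4 minus-strand mRNAs -3.90 and -2.50. The plus-strand mRNAs have few counts in the FLAG IPs (4 to 12 per library) and passed the filter there through their inputs, so the FLAG medians do not compare the strands. With Caper, *mt:ND6* passed only through its inputs too. The differences between the antibodies ran from -1.63 to -1.31 for the minus-strand complex I mRNAs and from -1.28 to -0.76 for the plus-strand ones. Those of complexes III, IV and V ran from -0.79 to -0.18. The complex I differences use the same FLAG values, and *mt:ND4L*, at -1.63, also passed the filter there through its inputs. They therefore do not compare the strands either. Neighbours within a block could be far apart. In the first block, log2 fold changes spanned -4.28 to -1.26 with FLAG and -3.42 to -1.08 with Caper. In the second, they spanned -4.69 to -3.46 with FLAG and -3.06 to -1.96 with Caper. *mt:ND1* and the rRNAs of the fourth block, which follow each other on a strand, had differences between the antibodies of opposite sign.

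The tRNAs, which carry amino acids to the mitochondrial ribosome, had very few counts. All 22 together had 10 counts in the FLAG IPs, against 43 in their inputs, and 29 in the Caper IPs, against 41 in their inputs. No tRNA had more than 7 counts in a library, 19 of the 22 had fewer than 10 in all libraries together, and 7 had none, which at the depth of all libraries allows up to 0.0139 CPM. *mt:tRNA:Trp-TCA*, *mt:tRNA:Leu-TAA* and *mt:tRNA:Cys-GCA*, named after their counts were seen, had the most, with 30, 30 and 22 over the 12 libraries. The genes are 61 to 73 bases long and 15 of the 22 lie within 5 bases of another gene on their strand, where a read pair reaching into both is not counted. Per library, the 22 tRNAs together had 0.147, 0.253 and 0.0453 CPM of all counts in the FLAG IPs, against 1.71, 0.954 and 1.35 CPM in their inputs. They had 0.263, 0.410 and 0.418 CPM in the Caper IPs, against 1.29, 0.931 and 1.37 CPM in their inputs. Each IP lay below all inputs of its antibody, on 1 to 10 counts per IP, a measure that was chosen after its values were seen and was not tested. As a share of mitochondrial counts, which fell as well, the tRNAs had a mean log2 ratio of IP to input of -1.56 ± 1.97 (SD, n = 3) with FLAG and 2.0 ± 0.81 (SD, n = 3) with Caper, where all 3 pairs were above 0 and above every FLAG pair. An exact p between 3 pairs and 3 cannot go below 0.1. Over the 6 pairs, 2 were below 0, with a two-sided exact permutation p of 0.84375. With rRNA left out of the denominator, the share was 0.00739, 0.0153 and 0.0110% in the Caper IPs, against 0.0149, 0.0104 and 0.0163% in their inputs. It was 0.00501, 0.0121 and 0.00208% in the FLAG IPs, against 0.0209, 0.0124 and 0.0177% in their inputs. Only replicate 2 then lay above its input, so the Caper rise depends on the rRNA in the denominator. No single tRNA could be tested at this depth.

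The FLAG inputs and the Caper inputs, which carry the same labels apart from their IP and replicate numbers, were compared as background. None of the 14 RNAs differed between the FLAG inputs and the Caper inputs by edgeR's adjusted p, nor did any of 9944 genes tested, although 5 of the 14 and 176 (1.77%) of all genes had an unadjusted p below 0.05. DESeq2 called 0 of the 14 as well, with 7 at an unadjusted p below 0.05. The median log2 difference of the 14 was -0.25, with 12 of 14 lower in the FLAG inputs. The largest was *mt:ND2* at -0.58 ± 0.24 (SE), smaller than the difference between the antibodies for any of the 4 RNAs that passed.

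The nuclear genes for the same complexes were lower in the IPs as well, but by less. Of 67 nuclear subunits of the respiratory complexes and ATP synthase tested, 66 were lower in the FLAG IP and 0 higher, with a median log2 fold change of -0.94. In the Caper IP 18 were lower and 0 higher, with a median of -0.42, and 30 were lower with the replicate block, where 14.8% of all genes were. Of all genes tested, 19.5% were higher with FLAG and 6.33% with Caper. The FLAG count was 58 to 66 when 1 library was left out, where 1543 to 1980 of all genes were lower. The Caper count was 4 without Caper input 2, 6 without Caper input 1, 8 without Caper input 3 or Caper IP 2, 11 without Caper IP 3 and 28 without Caper IP 1, where 3 were higher. Calls over all genes changed too, from 812 lower of 10778. They were 107 of 11553 without Caper input 2, 202 of 11250 without Caper input 1 and 342 of 11564 without Caper input 3. Without Caper IP 2 they were 270 of 10616, without Caper IP 3 353 of 10617, and without Caper IP 1 1153 of 10391, with 1159 higher. By complex, the medians in the FLAG IP were -0.92 for complex I and -0.92 for complex II, -0.89 for III, -1.46 for IV and -1.01 for V. In the Caper IP they were -0.38, -0.46, -0.46, -0.75 and -0.40. The median difference between the antibodies was -0.55. None of the 67 differed by edgeR's adjusted p on all 12 libraries, although 37 had an unadjusted p below 0.05, DESeq2 called 8 lower in the FLAG IP and the replicate block 15. Without Caper IP 1, edgeR called 54 lower, and without any other library 0. Over all genes, edgeR on all 12 libraries called 16 of 11012 lower, with 1770 at an unadjusted p below 0.05. DESeq2 called 156 of 11012 lower and the block 599. The fit without Caper IP 1 called 223 of 10780 lower, and those without any other library 0 to 23. Of all nuclear genes with 291 to 1717 exon bases, the range of the 14 mitochondrial RNAs, 26.4% were lower with FLAG and 6.31% with Caper, with medians of -0.16 and 0.01.

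Of each complex, the nuclear gene with the largest fall is given here. *COX8* of complex IV had 24.1, 16.3 and 19.1 CPM in the FLAG IPs, against 203, 187 and 206 CPM in their inputs, a log2 fold change of -3.32 ± 0.15 (SE, edgeR adjusted p = 3.60e-05). It had 21.6, 44.8 and 40.3 CPM in the Caper IPs, against 196, 192 and 181 CPM in their inputs, a log2 fold change of -2.42 ± 0.27 (SE, edgeR adjusted p = 0.00565), both below the log2 fold changes of *mt:CoI* and *mt:CoIII* with the same antibody. *UQCR-6.4* of complex III had log2 fold changes of -2.74 ± 0.12 (SE, edgeR adjusted p = 2.29e-05) with FLAG and -2.13 ± 0.18 (SE, edgeR adjusted p = 0.00236) with Caper. *ND-MLRQ* of complex I had -2.57 ± 0.19 (SE, edgeR adjusted p = 0.000175) with FLAG and -2.0 ± 0.21 (SE, edgeR adjusted p = 0.00449) with Caper. *SdhD*, the membrane anchor of succinate dehydrogenase, and *sun*, a subunit of the ATP synthase, had log2 fold changes of -1.60 ± 0.10 (SE, edgeR adjusted p = 0.000138) and -1.84 ± 0.17 (SE, edgeR adjusted p = 0.000379) in the FLAG IP. In the Caper IP these were -0.92 ± 0.24 (SE, edgeR adjusted p = 0.0494) and -0.98 ± 0.24 (SE, edgeR adjusted p = 0.0452).

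Among genes that serve mitochondrial gene expression, those for mitochondrial ribosomal proteins were lower far more often than higher in the FLAG IP, and other factors went both ways. Of 72 nuclear genes for mitochondrial ribosomal proteins tested, 37 were lower and 1 higher in the FLAG IP (median -0.54), and 8 were lower and 1 higher in the Caper IP (median -0.19). Of all genes, 20.8% were lower with FLAG and 7.53% with Caper, near the Caper count. With the replicate block the Caper IP had 16 lower, where 14.8% of all genes were. Leaving out 1 library gave 26 to 43 lower with FLAG and 0 to 10 with Caper, with 0 without Caper input 1, Caper input 2 or Caper IP 2. Over all genes those fits with 0 called only 202 of 11250, 107 of 11553 and 270 of 10616 lower, so they are no result about these genes. The Caper count of 10 came without Caper IP 1, where 1153 of 10391 genes were lower. With FLAG, 1543 to 1980 of all genes were lower when 1 library was left out. *mRpL36*, of the large subunit, had log2 fold changes of -1.87 ± 0.19 (SE, edgeR adjusted p = 0.000498) with FLAG and -1.49 ± 0.28 (SE, edgeR adjusted p = 0.0210) with Caper. *mRpS9*, of the small subunit, rose by 0.29 ± 0.09 (SE, edgeR adjusted p = 0.0342) with FLAG and by 0.65 ± 0.14 (SE, edgeR adjusted p = 0.0314) with Caper. Of 22 factors for mitochondrial DNA maintenance, transcription, RNA processing and translation, 4 were higher and 5 lower in the FLAG IP (median 0.02), and 0 were higher and 1 lower in the Caper IP (median 0.11). The FLAG counts are near the 19.5% of all genes that were higher and the 20.8% that were lower, and are no result about these factors. *mtSSB*, which binds single-stranded mitochondrial DNA, was lower with both, with log2 fold changes of -0.86 ± 0.20 (SE, edgeR adjusted p = 0.0130) with FLAG and -1.06 ± 0.25 (SE, edgeR adjusted p = 0.0389) with Caper. *RNaseZ*, the nuclease that trims the 3′ ends of tRNAs in nucleus and mitochondria, had 123, 59.4 and 125 CPM in the FLAG IPs, against 61.4, 32.2 and 48.2 CPM in their inputs, a log2 fold change of 1.12 ± 0.33 (SE, edgeR adjusted p = 0.0299), with FLAG IP 5 inside the range of the inputs. In the Caper IP its log2 fold change was 0.94 ± 0.54 (SE, edgeR adjusted p = 0.303).

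**Figure D5:**
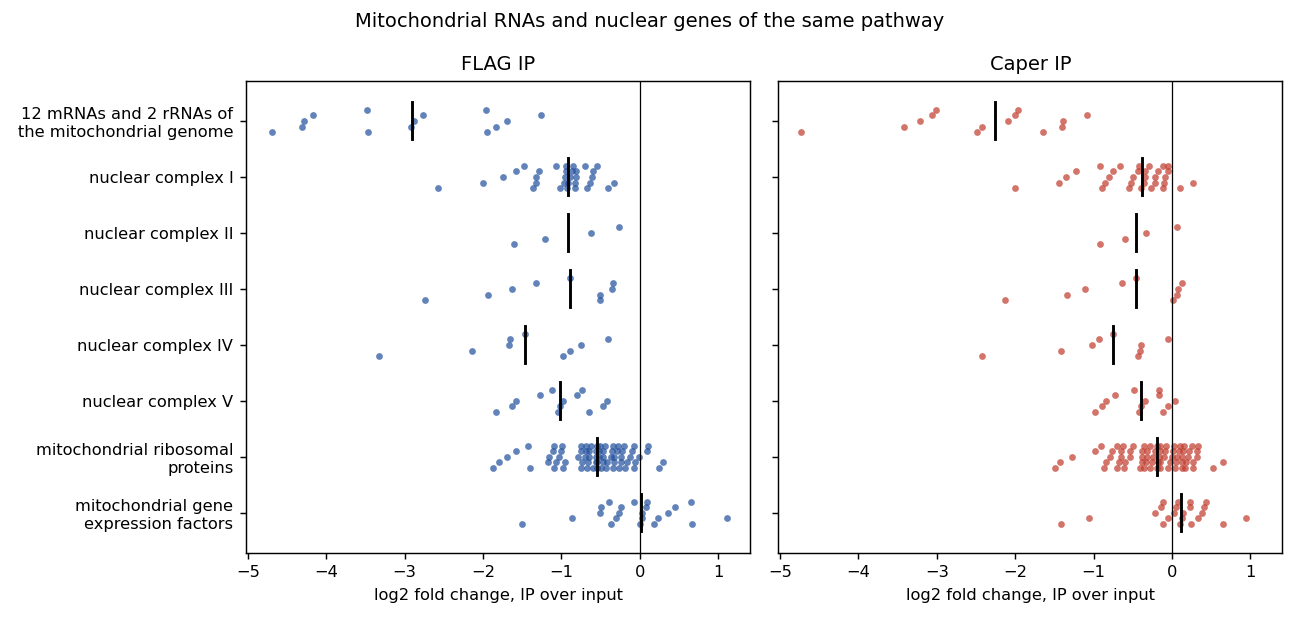
Log2 fold change of IP over input (x axis), FLAG on the left and Caper on the right, for the 14 mitochondrial RNAs tested and for the nuclear genes of each respiratory complex, the mitochondrial ribosome and mitochondrial gene expression, 1 point per gene with a bar at the median. The mitochondrial medians of -2.90 and -2.26 lie below those of every nuclear list.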

How the data were processed

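RNA from 6 IPs and their 6 inputs was sequenced. The authors trimmed reads with fastp 0.20.1, mapped them to dmel_r6.36 with STAR 2.7.6a and deposited the count of read pairs per gene, made strand-specifically with featureCounts (Subread 2.0.1) at a mapping quality of at least 20, together with exon lengths and a summary of uncounted alignments. RefSeq positions gave 17164 of 17612 genes a symbol and matched all 37 mitochondrial genes. The counts were tested with edgeR 4.0.16 in R 4.3.3 (TMM, filterByExpr with a count of 10 and a total of 15, glmQLFit and glmQLFTest, Benjamini-Hochberg adjustment over all genes tested). Each antibody was fitted on its own 6 libraries, the difference between antibodies on all 12, and the inputs on 6. The standard error is the size of the log2 fold change divided by the square root of F. Shares of counts were compared by exact permutation, swapping IP and input within the 6 pairs. The tests were checked on simulated counts.

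The numbers in the titles join each IP to its input. With group means removed, the log counts of IP and input of a pair had r = 0.783, 0.102 and 0.657 for replicates 1 to 3, and 0.521, 0.670 and 0.541 for replicates 4 to 6. Caper IP 2 correlated more with Caper input 3 (r = 0.595) than with its own input, so the pairing of replicate 2 rests on the titles alone. The methods name no replicate term, so the block was an alternative. The others were RLE, library size only, TMM on nuclear genes, no filter on low values, a minimum of 10 counts per library, DESeq2 1.42.0, a fit of all 12 libraries, and each library left out.

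All mitochondrial mRNAs and rRNAs are named, with the nuclear gene of each list that rose or fell most over both IPs among genes called in an IP with a mean of at least 50 counts. The mitochondrial genes and the lists were chosen with earlier results of these data known.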

Additional observations from a re-analysis of the deposited data

Results flagged for a closer look

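For 4 mitochondrial RNAs the change from input to IP differed between the antibodies by the test of the difference itself. The difference of log2 fold changes, FLAG IP minus Caper IP, was -1.52 for *mt:ND5* (edgeR adjusted p = 0.0134), -1.46 for *mt:ND4* (edgeR adjusted p = 0.0286) and -1.31 for *mt:ND1* (edgeR adjusted p = 0.0260). For *mt:lrRNA* it was 2.78 (edgeR adjusted p = 0.0155). The difference of *mt:ND5* missed the threshold without FLAG input 4 (edgeR adjusted p = 0.0618), and that of *mt:lrRNA* without Caper input 3, FLAG input 4, FLAG input 6 or FLAG IP 6 (edgeR adjusted p = 0.0507 to 0.0859). Those of *mt:ND4* (edgeR adjusted p = 0.0558 to 0.105) and *mt:ND1* (edgeR adjusted p = 0.0718 to 0.0982) missed it without any of the Caper inputs, Caper IP 2, FLAG input 4 or 6, or FLAG IP 5 or 6. The share of alignments mapping to several places, 34.3 to 40.9% in the FLAG IPs and 21.7 to 24.7% in the Caper IPs, was higher in the FLAG IPs, as was *mt:lrRNA*. Within the groups the 2 did not always go together. Caper IP 2 had the highest such share of the Caper IPs and the least *mt:lrRNA*, 0.260% of all counts. FLAG IP 5 was the lowest FLAG IP in both, with *mt:lrRNA* at 1.13%. The part of that share in the difference of *mt:lrRNA* was not tested.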

How the results depend on the processing

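Over the alternatives tried, the fall of the 14 RNAs kept its direction in every fit. In the FLAG IP 234 of 234 values stayed past the threshold, and in the Caper IP 222 of 237, where *mt:CoII*, *mt:CoIII*, *mt:ND6* and *mt:srRNA* lost the call in at least 1 fit. DESeq2 gave *mt:ND6* no adjusted p with Caper. Of the differences between antibodies, 233 of 262 values kept their direction and side of the threshold. The number of RNAs that differed was 8 with the replicate block, which joins each IP with its input, and 0 to 5 with a library left out, where the calls over all genes changed as well. The block ended no call of the 14 RNAs in either IP. The difference ran from -0.58 to 0.0318 for *mt:CoII* and from -0.41 to 0.0449 for *mt:CoIII* with a library left out, above 0 without Caper IP 3 in both. The median log2 fold change of the RNAs tested with Caper was -2.11 with library size only, -2.01 without a filter, -2.43 with at least 10 counts in every library, -2.11 with the block and without replicate 2, and -2.30 to -2.14 with a library left out. With FLAG it was -2.34 with at least 10 counts in every library, where 10 RNAs remained. Library size only moved the median of all genes to 0.09 with FLAG and 0.18 with Caper. With a pair of IP and input left out, the mean log2 ratio was -3.07 to -2.56 for the mitochondrial share and -2.02 to -1.67 for the minus-strand share, each at an exact p of 0.0625, the smallest 5 pairs can give. That of the tRNA share was -0.31 to 0.94 and fell below 0 without replicate 2 (-0.31) or 3 (-0.10). It was -1.04 with rRNA left out of the denominator. The cause of these changes was not tested.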

Other observations

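Nuclear tRNA genes were as hard to measure as the mitochondrial ones. Of 295 in the table, 3 passed the filter on low counts with FLAG and 4 with Caper.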
